A study of Rattus norvegicus with 42 samples.

Results

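The clock output transcription factors were 8 genes of rat liver, Dbp, Tef, Hlf, Nfil3, Bhlhe40, Bhlhe41, Ciart and Rora. They were taken by gene name from the pSer2 Pol2 table, and their Ensembl identifiers found all 8 among the 22929 genes of the RNA count table. In the presence of corticosterone (CORT), the glucocorticoid receptor (GR) was enriched at 7 regions centred within 50 kb of a start of 5 of these genes (Ciart, Bhlhe40, Nfil3, Rora and Tef), of 3981 GR regions in all. GR was raised at 7 of the 7 at the pulse peak (78.6% of all regions) and at 2 of 7 at the nadir (7.44%). The nadir count changed whichever library was left out. With each library centred on its median, 0 of 7 differed from vehicle at the peak (13.4% of all regions, most of them lower). No clock output gene passed the test for mRNA or for elongating polymerase (adjusted p under 0.05 and a change of at least 1.5-fold). Nfil3 mRNA was the nearest to the threshold, at a mean of 17.6 ± 1.20 CPM (counts scaled to library size) after pulsatile CORT and 33.3 ± 4.28 after pulsatile vehicle (SD, n = 3 libraries each).

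Clock output genes carry the rhythm of the core clock, in which CLOCK and BMAL1 drive transcription through E-boxes, to the metabolic genes of the liver. DBP, TEF and HLF are basic leucine zipper activators of the PAR family that bind D-boxes, and NFIL3 represses through the same D-boxes. BHLHE40 and BHLHE41 (also called DEC1 and DEC2) repress at E-boxes, CIART (CHRONO) represses CLOCK and BMAL1 by direct contact, and RORA activates through ROR elements, including those of the Bmal1 gene.

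Liver was taken from male Sprague Dawley rats, all of which had been adrenalectomised, had received dexamethasone after surgery and had been given CORT in their drinking water during recovery, withdrawn before the infusion. The age of the rats is not given in the sources used here. Per the study's methods, all experiments were completed within the same few hours of the light/dark cycle, so that levels at other times of day were not measured. CORT was infused either in hourly pulses of 20 min (PULS) or at a constant rate (CONS), and vehicle (VEH) followed the same schedules. GR and pSer2 Pol2, the form of RNA polymerase II phosphorylated on serine 2 that marks elongation, were measured by ChIP-Seq at 140 min, the peak of a pulse (PEAK_140), at 180 min, its nadir (NADIR_180), and at the same times of constant infusion (CONS_140 and CONS_180), with 2 libraries of 6 pooled rats in each group. The VEH group of each antibody joined 1 library of 140 min and 1 of 180 min, both from pulsatile vehicle. RNA-Seq was done at 180 min only, on 3 libraries each of PULS CORT, PULS VEH, CONS CORT and CONS VEH, so that the PULS libraries stand at the nadir of a pulse, and the number of rats per library is not given in the sources used here. With so few libraries, p-values measure only the spread between these samples. Because every ChIP comparison against VEH used the same 2 VEH libraries, the comparisons are not independent of each other.

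Of the 8 genes, 7 had an entry in the RefSeq promoter sequences (rat assembly GRCr8), and the 250 bases before the start of transcription were searched on both strands for the motifs through which the family acts or is controlled. The E-box CACGTG was present in 4 of the 7 (Tef, Bhlhe40, Bhlhe41 and Ciart), whereas 5.59% of 33469 promoters of the same length held it. The D-box, searched as TTATGTAA or TTACGTAA, was in none of the 7 and in 0.932% of all promoters. The full GR element, AGAACA and TGTTCT with 3 bases between them, was in none of the 7 and in 0.012% of all promoters. Its looser form (GNACA, 3 bases, TGTNC) and the half-site AGGTCA, part of the ROR element, were also in none of the 7 and in 0.373% and 14.1% of all promoters. The 4 sequences with an E-box are shown because the E-box is the only one of these motifs that the genes share, with the E-box in capitals. The whole window is given for Ciart, which held 3 E-boxes (at -93 to -88, -35 to -30 and -21 to -16 from the start), and the bases around the single E-box for the others. They lie at chr2:186112247-186112496 (minus strand) for Ciart, chr4:143174210-143174255 (plus strand) for Bhlhe40, chr4:180569378-180569423 (minus strand) for Bhlhe41 and chr7:115206609-115206654 (plus strand) for Tef.
Ciart: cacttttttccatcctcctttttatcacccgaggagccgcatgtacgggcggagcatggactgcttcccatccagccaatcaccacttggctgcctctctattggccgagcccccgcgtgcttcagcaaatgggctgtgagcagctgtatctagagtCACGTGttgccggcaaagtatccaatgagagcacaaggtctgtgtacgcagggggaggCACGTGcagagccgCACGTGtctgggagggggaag
Bhlhe40: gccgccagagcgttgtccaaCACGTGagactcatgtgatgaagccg
Bhlhe41: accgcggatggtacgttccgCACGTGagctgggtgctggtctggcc
Tef: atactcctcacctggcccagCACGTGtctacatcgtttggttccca
The GR and pSer2 Pol2 regions below are placed on another assembly, rn6, and were not aligned to these sequences. A match is a description of the letters and not a site.

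GR libraries held 2051977 to 6715803 tags, those of pSer2 Pol2 4938473 to 9326927 tags and those of RNA 3956379 to 7777219 reads. The treatment was visible in genes known to respond to GR: of 8 such genes, 7 rose with PULS (Fkbp5, Tsc22d3, Per1, Zbtb16, Dusp1, Tat and Pck1, by 1 to 2.74 on the log2 scale), and the same 7 rose with CONS while Sgk1 fell. Markers of hepatocytes were high throughout (6 of 6 measured, summing to 86840 to 141367 CPM per library), and those of lymphocytes summed to at most 1.98 CPM. The summed level of 5 stellate cell markers was lower with CORT than with VEH in both patterns (240 to 306 against 354 to 484 CPM in PULS, 251 to 325 against 351 to 409 CPM in CONS), and its part in the results below was not tested. Of the 5 markers taken singly, 0 were called with PULS and 1 with CONS (4.23% and 9.2% of all genes), and a sum can rest on 1 abundant marker. In bulk liver, fewer cells of a type and less RNA per cell cannot be told apart.

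**Figure D1:**
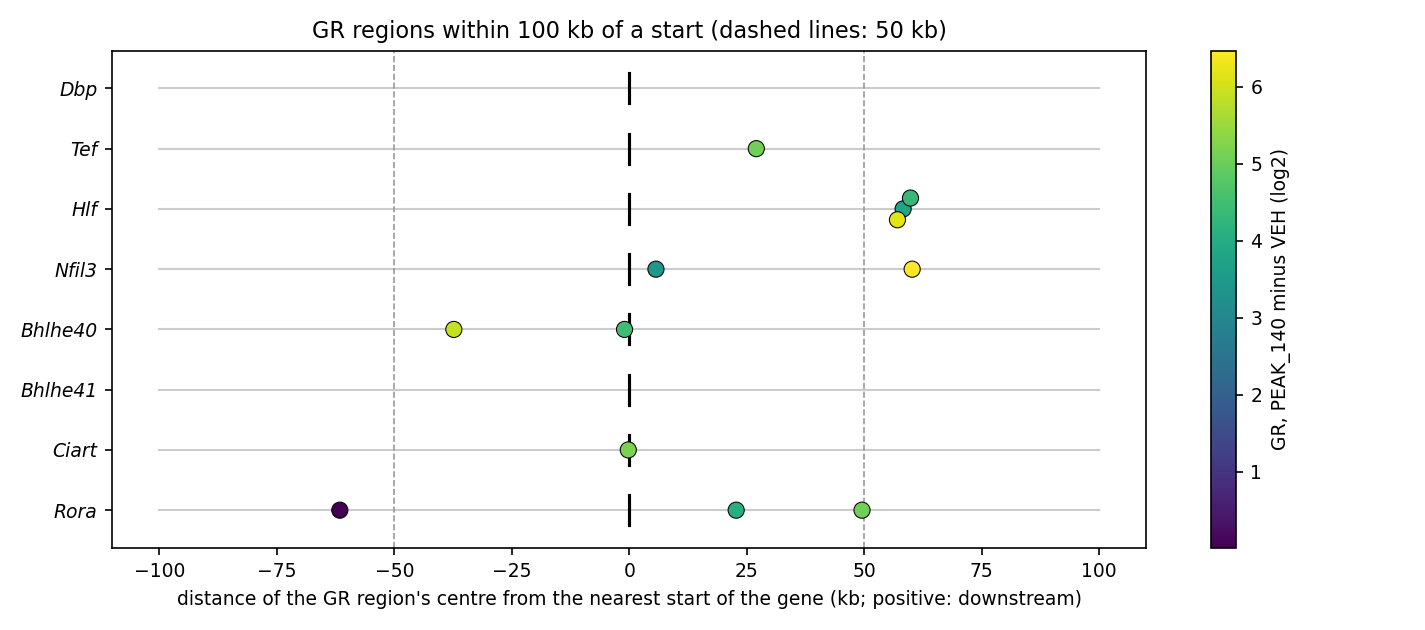
Position of GR regions near the 8 genes. The x axis is the distance of a region's centre from the nearest start of the gene in kb, rows are genes, and colour is the PEAK_140 minus VEH difference in GR on the log2 scale. Inside the dashed lines at 50 kb lie 7 regions of 5 genes, and none lies near Dbp or Bhlhe41.

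GR enrichment. The GR regions closest to a start were those of Ciart, at 0.2 kb (chr2:197991469-197992094 in rn6, annotated as promoter), and Bhlhe40, at 1.0 kb upstream (chr4:140702299-140702924, intergenic). The Ciart region ran from -520 to 105 bases around the outer annotated start and from -896 to -271 bases around the inner one. Nfil3 had a region in its only intron, 5.7 kb downstream of the start (chr17:12266468-12267093). Rora had regions in intron 1, at 22.7 kb (chr8:75539455-75539850) and 49.5 kb (chr8:75566092-75566759). The others were intergenic, 37.3 kb upstream of Bhlhe40 (chr4:140665972-140666619) and 27 kb downstream of the Tef start (chr7:123070300-123070925), where the authors' table gives Tob2 as the nearest gene. No GR region lay within 100 kb of Dbp or Bhlhe41, or within 50 kb of Hlf. Just inside the limit stood the Rora region at 49.5 kb, and just outside it 3 regions in an intron of Hlf at 57.1, 58.3 and 59.8 kb. These were 6.18, 3.78 and 4.34 above VEH at PEAK_140 on the log2 scale.

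At the pulse peak GR enrichment was raised at 7 of the 7 regions against VEH, and 78.6% of all 3981 regions were raised in the same comparison. At the nadir 2 of 7 were raised (7.44% of all regions), the Bhlhe40 region at 1.0 kb and the Rora region at 22.7 kb. Constant infusion raised 6 of 7 at 140 min (64.7% of all) and 7 of 7 at 180 min (67.9% of all). Since the table holds only regions in which a peak was called in at least 1 of these groups, most of its regions were raised and the count for the clock output genes is not a result about them. In the peak lists, none of the 7 regions was listed for VEH or NADIR_180, 5 were listed for PEAK_140, CONS_140 and CONS_180 alike, the Rora region at 22.7 kb was listed for PEAK_140 alone and the Nfil3 region for CONS_180 alone.

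These counts depended on the scale. Against VEH, the median of all regions was itself higher by 4.17 on the log2 scale in PEAK_140, by 3.38 and 3.46 in the constant groups of 140 and 180 min, and by 0.84 in NADIR_180. Relative to that median, the PEAK_140 difference was 1.73 at the Bhlhe40 region at 37.3 kb, 1.02 at Ciart, 0.90 at Tef, 0.90 at the Rora region at 49.5 kb, 0.30 at the Bhlhe40 region at 1.0 kb, -0.09 at the Rora region at 22.7 kb and -0.75 at Nfil3. With each library centred on its median over regions, 0 of 7 passed at PEAK_140 (13.4% of all regions, 103 higher and 431 lower) and the direction turned at Nfil3 (-1.19), at the Bhlhe40 region at 1.0 kb (-0.15) and at the Rora region at 22.7 kb (-0.54).

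At Ciart, GR values on the log2 scale were -0.69 and -0.88 in VEH, 4.69 and 4.10 at PEAK_140 and 1.96 and -0.46 at NADIR_180. Under constant infusion they were 6.34 and 5.02 at 140 min and 4.13 and 3.59 at 180 min. Every PEAK_140, CONS_140 and CONS_180 library stood above every VEH and NADIR_180 library and the NADIR_180 libraries lay far apart. The share of all regions that separate in this way was not counted, and 64.7 to 78.6% of all regions were raised against VEH in those groups. The difference from VEH was 5.19 (95% interval 3.24 to 7.14, limma, adjusted p = 0.00069) at PEAK_140 and 1.54 (interval -0.41 to 3.49, adjusted p = 0.41) at NADIR_180. The VEH values lay close to those of the Bhlhe40 region at 37.3 kb (-0.64 and -0.83) and the Rora region at 22.7 kb (-0.66 and -0.81). VEH was higher at Tef (1.55 and 2.10). Whether the low values are a floor of the scale was not tested, and a log2 difference from such a value depends on it.

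Bhlhe40 had a nearer and a farther region. At 1.0 kb the values were -0.44 and 1.23 in VEH, 4.82 and 4.9 at PEAK_140, 3.13 and 2.91 at NADIR_180, 6.55 and 5.59 at CONS_140 and 4.34 and 4.78 at CONS_180. At 37.3 kb they were -0.64 and -0.83 in VEH, 4.77 and 5.56 at PEAK_140, 1.98 and -0.40 at NADIR_180, 4.86 and 4.85 at CONS_140 and 4.36 and 5.16 at CONS_180. NADIR_180 thus stood 2.63 above VEH (adjusted p = 0.041) at the nearer region and 1.52 (adjusted p = 0.39) at the farther, and the difference between the regions was not tested. Peak against nadir was 1.84 (interval 0.38 to 3.29) at the nearer and 4.38 (interval 2.55 to 6.21) at the farther region.

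At Nfil3 the GR values were low, and only 19% of all regions had a lower mean at PEAK_140. They were -0.90 and -1.05 in VEH, 2.32 and 2.57 at PEAK_140, -0.85 and -0.71 at NADIR_180, 2.72 and -1 at CONS_140 and 2.88 and 2.24 at CONS_180. The CONS_140 libraries disagreed, the second lying with VEH. The CONS_140 difference from VEH was 1.84 (interval -0.67 to 4.34, adjusted p = 0.17) with both libraries and 3.70 (adjusted p = 0.0026) without that library.

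The Tef region was among the most enriched of the table, with 97.3% of regions below its PEAK_140 mean. Its values were 1.55 and 2.10 in VEH, 7.25 and 6.54 at PEAK_140, 4.12 and 2.96 at NADIR_180, 7.59 and 7.42 at CONS_140 and 6.65 and 6.56 at CONS_180. At the Rora region at 22.7 kb they were -0.66 and -0.81 in VEH, 3.99 and 2.70 at PEAK_140, 2.92 and 2.09 at NADIR_180, 2.80 and 2.50 at CONS_140 and 2.50 and 1.77 at CONS_180. This region was the only one of the 7 without a called fall from peak to nadir (0.84, interval -0.75 to 2.42, adjusted p = 0.30). At the Rora region at 49.5 kb the values were 1.93 and -0.69 in VEH, 6.08 and 5.30 at PEAK_140, 3.74 and 1.76 at NADIR_180, 4.28 and 3.81 at CONS_140 and 4.56 and 3.80 at CONS_180.

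**Figure D2:**
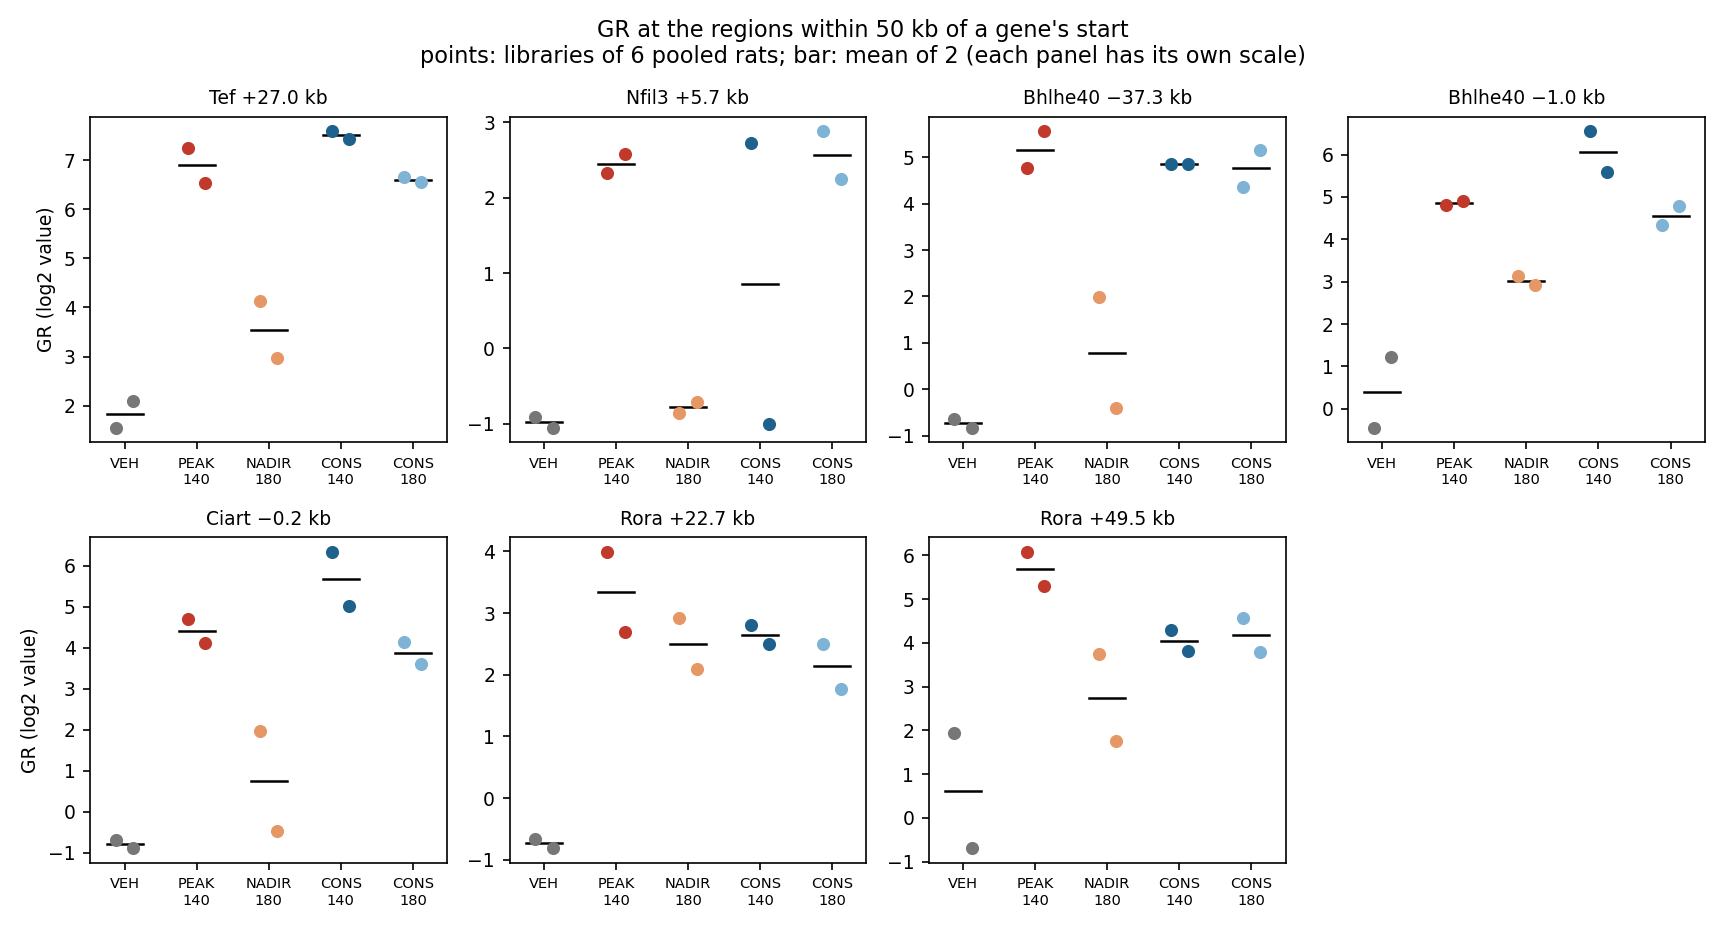
GR at the 7 regions within 50 kb of a start. Each panel shows 1 region with the log2 value of each library on the y axis and the 5 groups on the x axis, and bars are means of 2 libraries. VEH is lowest in every panel, and NADIR_180 lies below PEAK_140 in every panel by 0.84 to 4.38 between the means.

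Peak exceeded nadir at 6 of 7 regions (68.8% of all regions), and CONS_180 exceeded NADIR_180 at 4 of 7 (49.6% of all), namely Ciart (3.11), Tef (3.06), Nfil3 (3.34) and the farther Bhlhe40 region (3.97). The CONS_180 call at Nfil3 was lost in 8 of the 10 fits with 1 library left out. At the nearer Bhlhe40 region CONS_180 was 1.54 above NADIR_180 (adjusted p = 0.073). Leaving out 1 library lowered these counts: to 3 of 7 for peak against nadir without either PEAK_140 library or the second NADIR_180 library, and to 2 of 7 for CONS_180 against NADIR_180 without either CONS_180 library or the second NADIR_180 library. The count of 2 at the nadir against VEH changed whichever of the 10 libraries was left out: it was 0 without the first VEH or the first NADIR_180 library, 5 without the second NADIR_180 library and 1 in the other cases. The share of all regions called in each of these fits is not given here.

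At 3 of 7 regions (43.6% of all regions) the fall from 140 to 180 min with pulses exceeded the change with constant infusion. The difference was 4.93 at Nfil3, 4.29 at the farther Bhlhe40 region and 2.45 at Tef on the log2 scale. Over all regions its median was 3.11. At Nfil3 constant infusion showed no fall, with means of 0.86 at CONS_140, where the second library lay with VEH, and 2.56 at CONS_180. That region was listed as a peak for CONS_180 alone, a group of this comparison. The difference was 3.07 at the Rora region at 49.5 kb (limma, adjusted p = 0.088), 1.83 at Ciart and 0.33 at each of the other regions. The count fell to 0 without the first PEAK_140 or the second CONS_180 library and to 1 without the second PEAK_140, the second CONS_140 or the first CONS_180 library, and it was 0 with each library centred on its median.

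Elongating polymerase. The pSer2 Pol2 value of a gene was read over its coding region, limited to the first 10 kb. None of the 8 genes, and none of their 13 distinct regions, passed in any of 7 comparisons. Among all 38315 regions with tags, 0.989% were called at PEAK_140 against VEH, 0.00522% at NADIR_180, 0.788% at CONS_140 and 0.214% at CONS_180, while 0.48% differed between PEAK_140 and NADIR_180, 0.17% between CONS_180 and NADIR_180 and 0.0574% by time and pattern. With shares of this size, 0 of 8 is close to the background. An unadjusted p under 0.05 was found for 0 to 2 of the 8 genes per comparison (limma), against 1.45 to 6.41% of all regions. It was found for Nfil3 at PEAK_140, at CONS_180 and by time and pattern. Bhlhe41 had it at NADIR_180, for PEAK_140 and CONS_180 against NADIR_180, and by time and pattern. Nearly all Bhlhe41 values lay at the lowest value of that gene. The same fit called Per1, a core clock gene and known GR target, at PEAK_140 (3.05), CONS_140 (3.96) and CONS_180 (3.42). Each of these is the value of the called Per1 region with the largest change.

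Among the D-box activators, pSer2 Pol2 over Dbp had log2 values of 7.44 and 7.15 in VEH, 7.33 and 7.37 at PEAK_140, 8.37 and 7.27 at NADIR_180, 8.01 and 7.54 at CONS_140 and 7.42 and 7.30 at CONS_180. Over Tef the values were 6.98 and 6.41 in VEH, 7.03 and 6.40 at PEAK_140, 7.40 and 6.38 at NADIR_180, 7.80 and 7.34 at CONS_140 and 7.29 and 6.72 at CONS_180. Over Hlf they were 4.75 and 3.99 in VEH, 5.34 and 5.46 at PEAK_140, 5.27 and 4.51 at NADIR_180, 5.59 and 4.82 at CONS_140 and 5.27 and 4 at CONS_180. Both PEAK_140 libraries stood above both VEH libraries for Hlf alone of the 8 genes (4.25% of all regions), and both CONS_140 libraries did so for Dbp, Tef and Hlf (10.6% of all regions). The median of all regions was itself 0.15 above VEH at CONS_140. The Hlf difference at PEAK_140 was 1.03 (95% interval -0.02 to 2.08, adjusted p = 1.00), the Tef difference at CONS_140 was 0.87 (interval -0.08 to 1.83, adjusted p = 0.54), and Dbp at PEAK_140 differed by 0.06 (interval -0.81 to 0.92).

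Over Nfil3, the D-box repressor, the values were 9.15 and 8.85 in VEH, 8.28 and 8.13 at PEAK_140, 8.84 and 8.71 at NADIR_180, 9.07 and 8.43 at CONS_140 and 8.49 and 8 at CONS_180. The PEAK_140 and CONS_180 libraries lay below both VEH libraries, by -0.79 (interval -1.52 to -0.06, adjusted p = 0.85) and -0.76 (interval -1.49 to -0.02, adjusted p = 1.00) between the means. Of the 8 genes, Nfil3, Bhlhe40 and Rora lay wholly below VEH at PEAK_140 (12.7% of all regions), and Nfil3 and Bhlhe40 at CONS_180 (5.12%). Among all regions, 5.01% had an unadjusted p under 0.05 at PEAK_140 and 2.94% at CONS_180.

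Over Bhlhe40, the values were 9.01 and 9.05 in VEH, 8.65 and 8.67 at PEAK_140, 9 and 8.94 at NADIR_180, 8.84 and 8.22 at CONS_140 and 8.70 and 8.13 at CONS_180. VEH and NADIR_180 were the highest groups and CONS_180 lay below VEH (-0.62, interval -1.33 to 0.10, adjusted p = 1.00). Over Rora, the values were 6.75 and 6.14 in VEH, 5.70 and 5.71 at PEAK_140, 6.33 and 5.73 at NADIR_180, 7.13 and 6.31 at CONS_140 and 6.40 and 5.57 at CONS_180. The PEAK_140 libraries of Rora lay below both VEH libraries (-0.74, interval -1.67 to 0.19, adjusted p = 1.00).

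Over Ciart, 4 of the 10 libraries shared the lowest value of 3.60 within 0.02, and the highest was 4.2 in a CONS_140 library. Over Bhlhe41, 8 of the 10 libraries shared the lowest value of -0.53 and the NADIR_180 libraries stood at -0.14 and -0.17. A value shared by most libraries is the floor of the scale for that region, so the level of Bhlhe41 was at or near the floor in every library. The Bhlhe41 difference at NADIR_180 was 0.37 (interval 0.16 to 0.58, adjusted p = 1.00).

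The last comparison took the difference of PEAK_140 and NADIR_180 minus that of CONS_140 and CONS_180. On this scale all 8 genes had values below 0, from -1.08 (Nfil3, adjusted p = 0.60) to -0.06 (Hlf), with a median of -0.67, and the median of all regions was -0.30. That median of all regions was -0.01 without the first CONS_140 library, so the shift shared by the regions depended on that library. The Nfil3 value was -1.40 (adjusted p = 0.026) without the second CONS_140 library, but in that fit 20.1% of all regions were called, 7529 of 7696 in the same direction, and the median of all regions was -0.57.

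**Figure D3:**
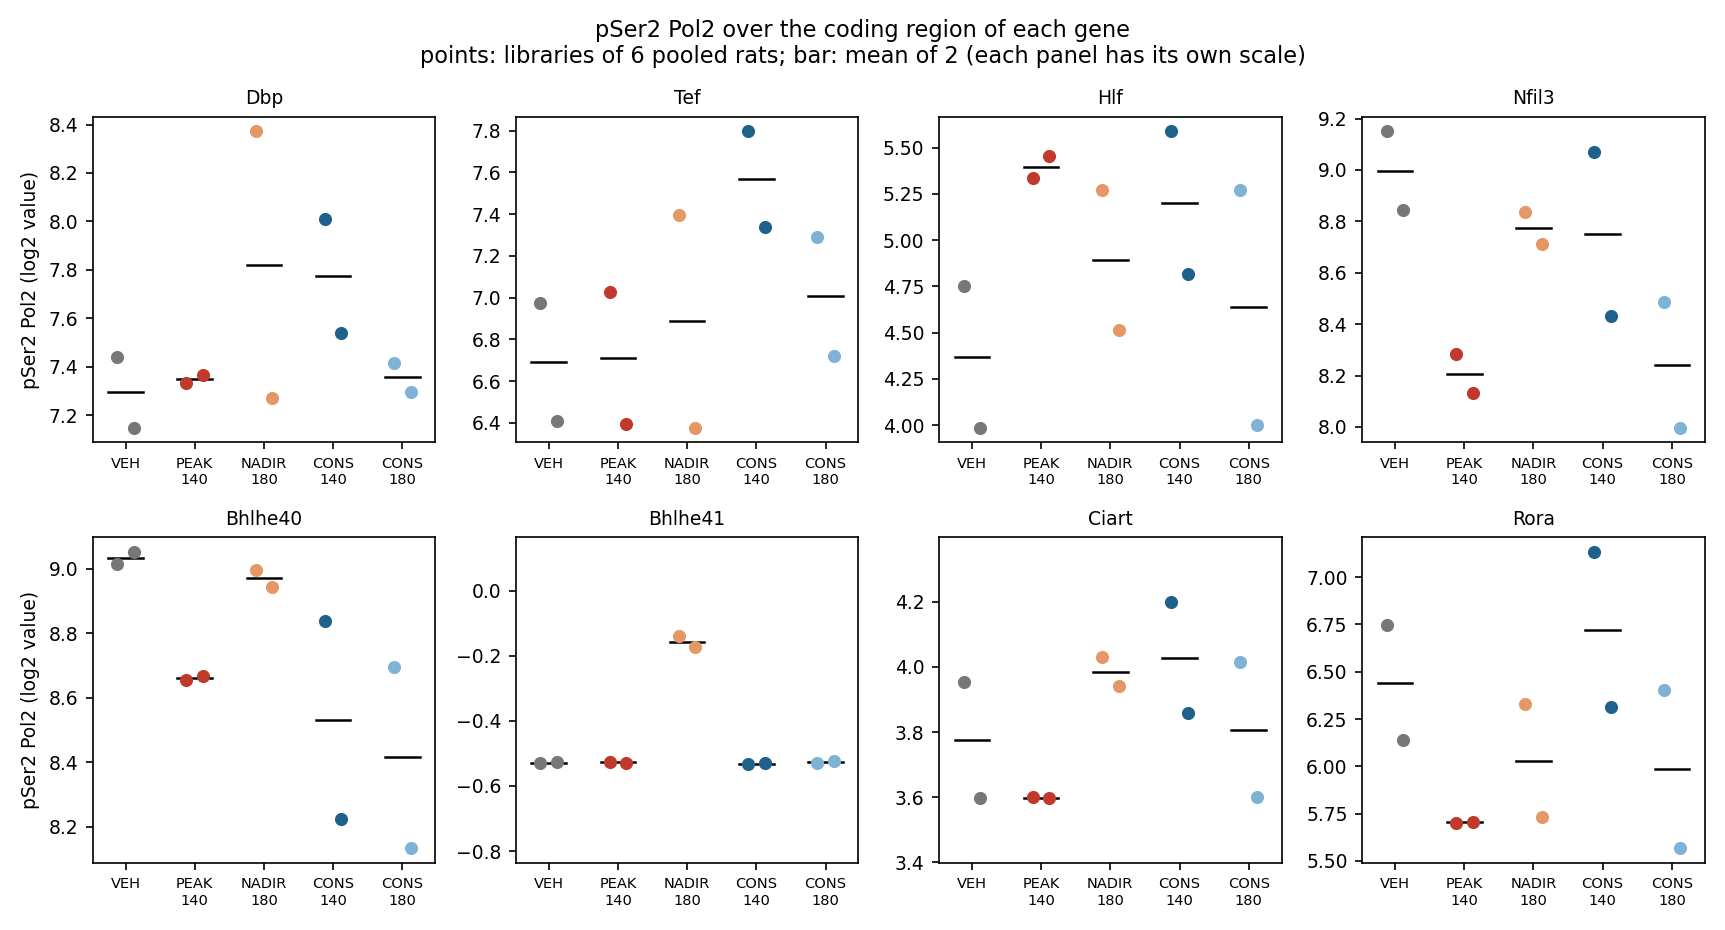
pSer2 Pol2 over the 8 genes. Each panel shows 1 gene with the log2 value of each library on its own y scale and the 5 groups on the x axis, and bars are means of 2 libraries. Nfil3 is lowest at PEAK_140 and CONS_180 (means of 8.21 and 8.24 against 9 in VEH), and 8 of the 10 Bhlhe41 libraries sit at one value.

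mRNA. At 180 min, 7 of the 8 genes passed the filter of more than 10 reads over the 12 libraries, among 14092 genes. With PULS CORT against PULS VEH 0 of 7 were called (4.23% of all genes), with CONS CORT against CONS VEH 0 of 7 (9.2% of all genes), and 0 of 7 differed in their response between the patterns (0.0284% of all genes, 12.4% with an unadjusted p under 0.05). The last comparison called 4 genes in all, against 229 (1.63%) with DESeq2 and 288 (2.07%) without the first CONS VEH library, and 0 of the 7 in each case. An unadjusted p under 0.05 was found for 1 of 7 with PULS, Nfil3 (19.8% of all genes), for 3 of 7 with CONS, Nfil3, Hlf and Bhlhe40 (25.3%), and for 0 of 7 in the difference between the patterns. Between the vehicle groups 0 of 7 were called (0% of all 14092 genes in edgeR, 9.13% with an unadjusted p under 0.05, and 20 genes by DESeq2). The median log2 change of the 7 genes was -0.26 with PULS and 0.17 with CONS, and that of all genes was -0.01 in both.

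Nfil3 had 28.4, 34.9 and 36.5 CPM with PULS VEH and 18.7, 16.3 and 17.9 CPM with PULS CORT. With CONS VEH it had 35.4, 26.2 and 39.6 CPM, and with CONS CORT 13.2, 34.2 and 18.3 CPM. The PULS groups did not overlap, which in the same direction held for 12.8% of all genes, whereas 1 CONS CORT library lay among those of CONS VEH. The level with PULS CORT was 0.532 times that with VEH (log2 -0.91, SE 0.26, 95% interval -1.46 to -0.36, edgeR adjusted p = 0.052), and with CONS CORT 0.658 times (log2 -0.60, interval -1.12 to -0.09, adjusted p = 0.13). The PULS value stood near the threshold. DESeq2 on the same counts called it (-0.91, adjusted p = 0.021), as did edgeR on the 6 PULS libraries alone (-0.90, adjusted p = 0.0048), and without the first or the second CONS CORT or the second CONS VEH library it was called at -0.91 (adjusted p = 0.0064 to 0.043). Over all alternatives the adjusted p ran from 0.0048 to 0.16. Without the second CONS CORT library the CONS value was -1.10 (adjusted p = 0.0016), and without the first it was -0.36 (adjusted p = 0.39). A difference between the responses to the patterns did not pass the test (0.31, interval -0.45 to 1.06, adjusted p = 0.78).

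Hlf had 29.2, 23.2 and 33.4 CPM with PULS VEH, 22.5, 20.8 and 30.6 with PULS CORT, 33.1, 17 and 15.6 with CONS VEH and 50.2, 23.2 and 32.6 with CONS CORT. The groups overlapped in both patterns. CONS CORT stood 0.64 above CONS VEH on the log2 scale (interval 0.04 to 1.23, adjusted p = 0.16) and PULS CORT at -0.22 (interval -0.84 to 0.40). The responses differed by 0.86 (interval -0.00 to 1.72, adjusted p = 0.40). The CONS value was 1.10 (adjusted p = 0.017) without the first CONS VEH library and 0.31 (adjusted p = 0.58) without the first CONS CORT library.

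Tef had 10.8 to 21.0 CPM with PULS VEH, 15.4 to 17.8 with PULS CORT, 13.2 to 22 with CONS VEH and 16.1 to 27 with CONS CORT. Its changes of 0.07 (interval -0.47 to 0.61) and 0.17 (interval -0.33 to 0.68) for PULS and CONS bound a rise to 1.53 times and 1.6 times. Dbp, for which only 7 to 29 reads were counted per library, had 1.99, 5.48 and 2.07 CPM with PULS VEH and 1.35, 2.47 and 2.73 with PULS CORT, and 1.97 to 4.47 CPM in the CONS libraries. Its intervals were wide, from -1.54 to 0.39 with PULS and from -0.65 to 1.14 with CONS.

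Bhlhe40 had 10.3, 17.6 and 17.4 CPM with PULS VEH, 7.51, 15.3 and 13.4 with PULS CORT, 10.1, 14.8 and 6.88 with CONS VEH and 3.86, 8.16 and 5.19 with CONS CORT. The CONS CORT libraries included the lowest values and overlapped those of CONS VEH. The CONS change was -0.82 (interval -1.53 to -0.11, adjusted p = 0.13) and the PULS change -0.34 (interval -1 to 0.32, adjusted p = 0.61). Its pSer2 Pol2 values against VEH were -0.50 at CONS_140 and -0.62 at CONS_180.

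Rora was the most deeply counted, with 330 to 1104 reads per library. It had 125, 77.6 and 111 CPM with PULS VEH, 95.3, 83.3 and 82.0 with PULS CORT, 135, 75.6 and 95 with CONS VEH and 109, 123 and 98.5 with CONS CORT. The groups overlapped, and the intervals were the narrowest of the 7 genes, from -0.67 to 0.15 with PULS and from -0.29 to 0.51 with CONS.

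Ciart and Bhlhe41 were at the limit of detection. Ciart had 13 reads in 12 libraries, 3, 2 and 2 with CONS CORT against 0, 2 and 0 with CONS VEH, 1, 0 and 1 with PULS CORT and 1, 1 and 0 with PULS VEH. Bhlhe41 had 4 reads, 0, 0 and 1 with CONS CORT, 2, 0 and 0 with CONS VEH, 0, 0 and 0 with PULS CORT and 1, 0 and 0 with PULS VEH. A count of 0 allows 3 reads, which is 0.386 to 0.758 CPM in the libraries at 0, and covers counting error only. For Ciart the interval of the mRNA change ran from -2.61 to 3.02 with PULS and from -0.54 to 3.85 with CONS, so that a change within it was not detectable at this depth.

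**Figure D4:**
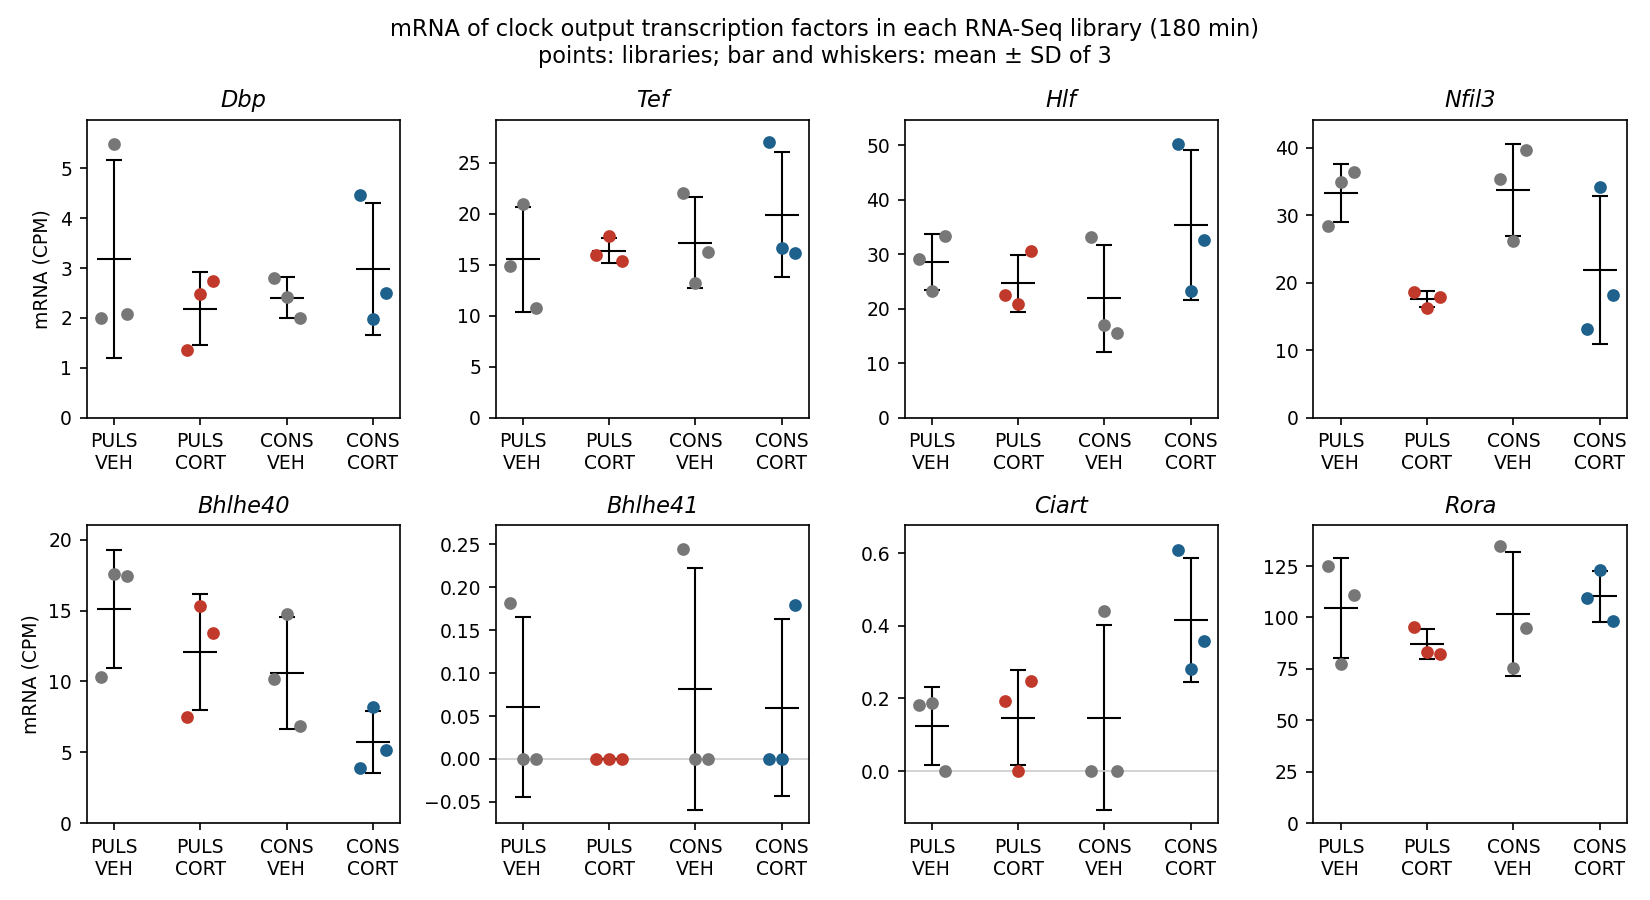
mRNA of the 8 genes at 180 min. Each panel shows 1 gene with CPM per library on its own y scale, the 4 groups on the x axis, and the mean with SD of 3 libraries. The PULS CORT and PULS VEH libraries separate for Nfil3 (16.3 to 18.7 against 28.4 to 36.5 CPM) and overlap for the other genes with more than 13 reads.

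**Figure D5:**
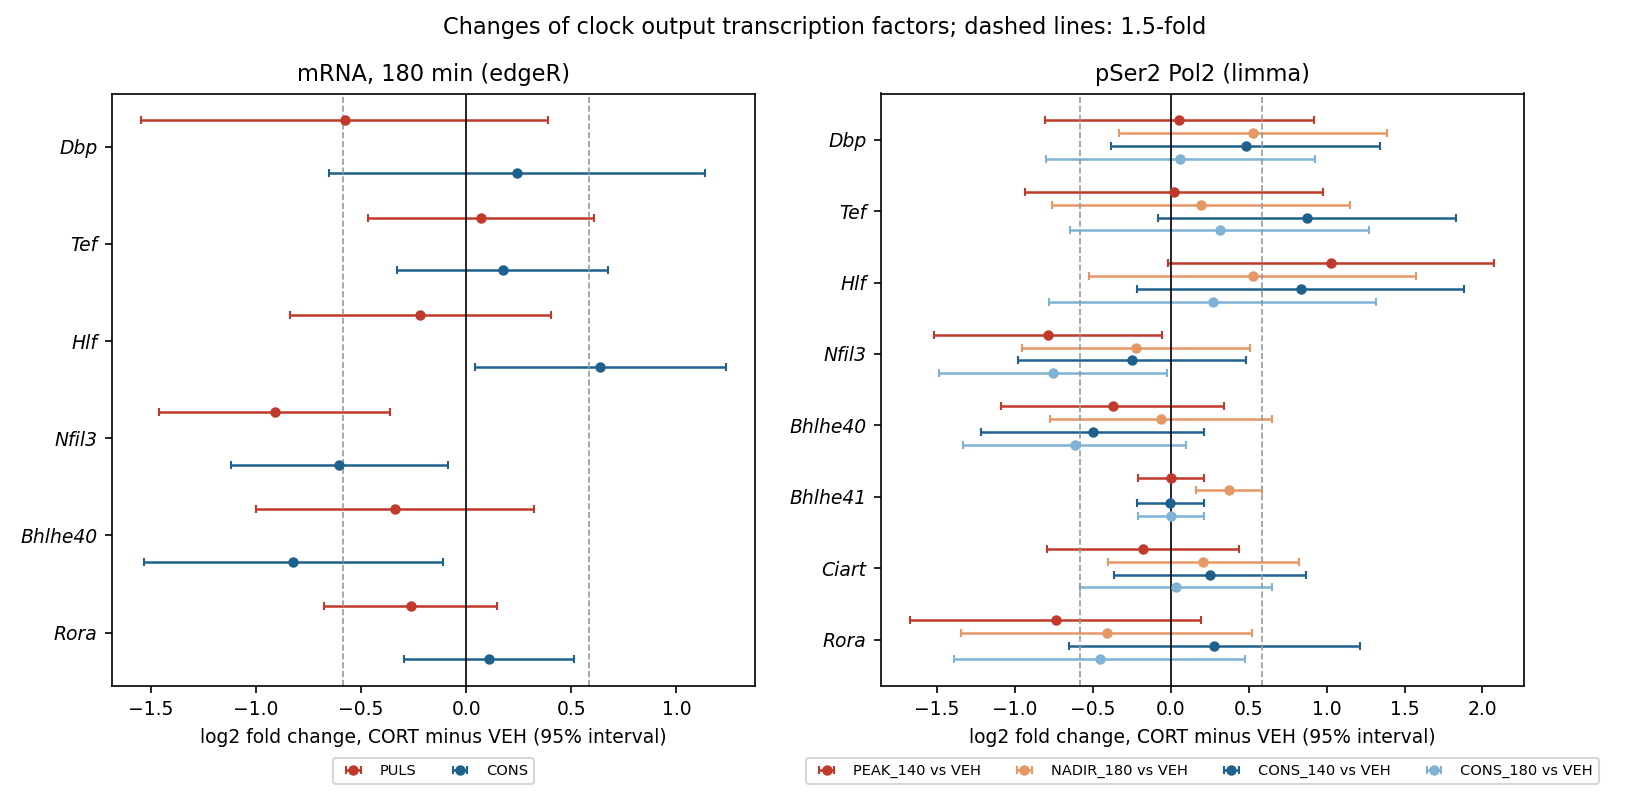
Changes against VEH with 95% intervals, for mRNA of 6 genes (edgeR, PULS and CONS) and pSer2 Pol2 of 8 genes (limma, 4 groups). The x axis is the log2 fold change, and dashed lines mark 1.5-fold. Nfil3 and Bhlhe40 lie below 0 in all 6 comparisons, by as little as -0.06 for Bhlhe40 pSer2 Pol2 at NADIR_180, and neither gene passed the test in any of them. The 4 pSer2 Pol2 comparisons share the same VEH libraries, and the share of all genes that lie below 0 in all 6 comparisons was not counted. The Nfil3 mRNA interval for PULS runs from -1.46 to -0.36.

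Genes around the clock outputs. Among 16 core clock genes, 13 were tested for mRNA. Of these, 2 rose and 0 fell with PULS (4.23% of all genes called), and 3 rose and 3 fell with CONS (9.2%). Per1 rose in both (2.74 with PULS, 3.12 with CONS). Cry1 rose with PULS (0.97), Nr1d1 (0.88) and Csnk1d (0.71) rose with CONS, and Cry2 (-0.99), Npas2 (-1.04) and Per2 (-1) fell with CONS. The median change of the 13 genes was 0.01 with PULS and 0.35 with CONS, against -0.01 for all genes in both. Between the patterns 0 of 13 were called in edgeR (0.0284% of all genes), where 5 had an unadjusted p under 0.05 (12.4% of all genes).

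Of 10 genes described as controlled through D-boxes or by PAR factors in liver, 9 were tested. With PULS 2 rose and 0 fell (4.23% of all genes called), while 3 rose and 3 fell with CONS (9.2%). Por, which supplies electrons to cytochrome P450 enzymes, rose by 1.68 with PULS and 2.71 with CONS. Nr1i3, the xenobiotic receptor CAR, rose with CONS (1.03), and Cyp7a1, the rate-limiting enzyme of bile acid synthesis (-0.89), and Cyp2c6v1 (-0.84), a cytochrome P450 with near copies whose reads cannot be told apart with certainty, fell with CONS. Per1 and Per2, which are in both lists, make up the rest. At these genes pSer2 Pol2 rose over Por at PEAK_140 (3.33), CONS_140 (3.22) and CONS_180 (2.49), and over Nr1i3 (2.10) and Cyp7a1 (2.25) at CONS_140, and fell over Cyp2c6v1 (-3.27) at PEAK_140. Each value is that of the gene's called region with the largest change in that comparison.

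Genes near GR regions were called more often than others, as a description of these libraries. Of 2774 tested genes with a start within 50 kb of a GR region raised at PEAK_140, 8.54% were called in mRNA with PULS, against 3.17% of the 11318 others. For regions raised at CONS_180 and mRNA with CONS, the shares were 19.3% of 2521 genes and 7.01% of 11571. Of the clock output genes, 5 lay within 50 kb of such a region in both comparisons and 0 of them were called, which at these shares is near the background.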

How the data were processed

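RNA was deposited as read counts per gene. Per the labels and the study's methods, the authors used STAR, featureCounts 1.6.2 and the rat build rn6, and Trimmomatic 0.36, SAMtools and HOMER 4.9.1 for ChIP-Seq. The features behind the counts were not established. The deposited ChIP values are on a log2 scale with input tags subtracted, over GR regions from peak calls in any group and over pSer2 Pol2 coding regions longer than 320 bases, limited to the first 10 kb. The file headers name scaling to total tags, and the study's methods tags within regions, so a shift shared by all GR regions depends on that choice. Columns of the authors' own comparisons (fold changes and adjusted p-values) were not used.

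Counts were tested with edgeR 4.0.16 (quasi-likelihood, TMM, all 12 libraries in one fit, genes with more than 10 reads in all), and log2 values with limma 3.58.1 (trend, all 10 libraries of an antibody) in R 4.3.3. A call needed a Benjamini-Hochberg adjusted p under 0.05 over all features and a change of at least 1.5-fold. Both were tested on simulated data. Tables were made with Python 3.11.15 and pandas 2.3.3.

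All 8 genes are named in every assay. For these 8 genes the pSer2 Pol2 region given is that with the highest mean value. Genes of other lists are named where called. Their pSer2 Pol2 value is that of the called region with the largest change in the comparison, so it is chosen by its change. Members and lists were chosen with earlier results of these data known. Alternatives were DESeq2 1.42.0 and its size factors, no filter, a replicate block, fewer libraries, each library left out, median centring or quantile normalization of ChIP values, no variance trend, and limits of 25 and 100 kb. Input libraries were not used here.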

Additional observations from a re-analysis of the deposited data

Results flagged for a closer look

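The GR response to time differed between pulsatile and constant infusion by the test of the difference itself at 3 regions near clock output genes, by 2.45 at Tef (27 kb), 4.93 at Nfil3 (5.7 kb) and 4.29 at Bhlhe40 (37.3 kb) on the log2 scale (limma, adjusted p = 0.020, 0.034 and 0.020). Of all 3981 regions, 43.6% differed in this direction, with a median of 3.11. Only regions with a peak called in at least 1 group were measured, and the Nfil3 region had its peak in CONS_180 alone. The p-values are therefore not independent of how the regions were chosen. With each library centred on its median, 0 of the 3 were called and Tef stood at -0.93, and with quantile normalization 0 of the 3 were called. With each library left out in turn the values stayed above 0, at 1.87 to 3.03 for Tef, 3.07 to 6.79 for Nfil3 and 3.09 to 5.48 for Bhlhe40. The call was lost at Tef without the first PEAK_140, the second CONS_140 or either CONS_180 library (adjusted p up to 0.082), and at Bhlhe40 without either PEAK_140, the second CONS_140 or the second CONS_180 library (adjusted p up to 0.069). At Nfil3 it was lost without the second VEH library or any 1 of the PEAK_140, NADIR_180 and CONS_180 libraries (adjusted p up to 0.098). The value of 3.07 at Nfil3 was that without the second CONS_140 library, which lay with VEH.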

How the results depend on the processing

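GR results depended most on scaling. With libraries centred on their median, 0 of 7 regions were called at PEAK_140 against VEH, 0 at NADIR_180, 1 at CONS_140, 0 at CONS_180, 0 for PEAK_140 against NADIR_180, 0 for CONS_180 against NADIR_180 and 0 by time and pattern. Of all regions, 13.4, 0, 12, 8.21, 5.43, 0 and 1% were called. With quantile normalization the counts were 1, 0, 2, 1, 1, 1 and 0, and 26.1, 3.29, 19.4, 20.6, 11.8, 4.25 and 4.14% of all regions were called. Among values called before, centring turned the direction at PEAK_140 for Nfil3 (-1.19), Bhlhe40 at 1.0 kb (-0.15) and Rora at 22.7 kb (-0.54), at CONS_140 for Rora at 49.5 kb (-0.69) and 22.7 kb (-0.73), and at CONS_180 for Rora at 49.5 kb (-0.51), Nfil3 (-0.53) and Rora at 22.7 kb (-1.19). For PEAK_140 against NADIR_180 it turned at Tef (-0.085), Rora at 49.5 kb (-0.50), Nfil3 (-0.21) and Bhlhe40 at 1.0 kb (-1.60), and by time and pattern at Tef (-0.93). Quantile normalization turned Bhlhe40 at 1.0 kb (-0.035) and Rora at 22.7 kb (-0.57) at PEAK_140, Rora at 49.5 kb (-0.81) and 22.7 kb (-0.69) at CONS_140 and Rora at 49.5 kb (-0.36) and 22.7 kb (-1.12) at CONS_180. For PEAK_140 against NADIR_180 it turned Rora at 49.5 kb (-0.061), Bhlhe40 at 1.0 kb (-1.15) and Rora at 22.7 kb, not called before (-2.23, limma, adjusted p = 0.026). These scalings also turned 15 values that were called in neither fit, at Nfil3, Rora, Bhlhe40 at 1.0 kb and Ciart, from -0.19 to -3.06. They include, with centring, Nfil3 at CONS_140 (-2.28), Rora at 22.7 kb for PEAK_140 against NADIR_180 (-2.60) and, by time and pattern, Bhlhe40 at 1.0 kb (-3.05) and Ciart (-1.55). Both scalings set a shift shared by most regions to 0 by construction.

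Within 25 kb, where 4 regions lie, 4 were called at PEAK_140, 3 at CONS_140, 4 at CONS_180, 3 for PEAK_140 against NADIR_180, 2 for CONS_180 against NADIR_180 and 1 by time and pattern. Within 100 kb (12 regions) 11 were called at PEAK_140 and 5 by time and pattern. At NADIR_180, 1 was called with no variance trend and 0 with only the 4 libraries compared.

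For mRNA with PULS, 1 of 7 (Nfil3) was called with DESeq2, with no filter and with only the 6 libraries compared. With CONS, 1 was called with no filter (Nfil3, -0.60) and 1 with the replicate block (Bhlhe40, -0.91, edgeR, adjusted p = 0.027). With quantile normalization 1 pSer2 Pol2 result, Hlf at PEAK_140, was called (1.35, limma, adjusted p = 0.038).

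With each library left out in turn, the counts ran from 0 to 1 for mRNA with PULS and with CONS and for pSer2 Pol2 by time and pattern. For GR they ran from 6 to 7 at PEAK_140, 0 to 5 at NADIR_180, 5 to 7 at CONS_140, 5 to 7 at CONS_180, 3 to 6 for PEAK_140 against NADIR_180, 2 to 4 for CONS_180 against NADIR_180 and 0 to 4 by time and pattern. These counts are given without the shares of all features in the same fits.

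The libraries share only a replicate number, and those of VEH carry none in the ChIP data, so that for GR and pSer2 Pol2 the block was fitted only for PEAK_140 against NADIR_180, CONS_180 against NADIR_180 and time by pattern. The correlation of same-numbered libraries' deviations was 0.155 to 0.553 for pSer2 Pol2, where 8 of 8 libraries correlated best with their own number, -0.027 to 0.072 for GR (4 of 8) and -0.039 to 0.059 for RNA (7 of 12). With the replicate block the counts were 0 for mRNA with PULS (4.53% of all genes) and 1 with CONS (9.27%). They were 0 for pSer2 Pol2 (0.509, 0.151 and 0.107% of all regions). For GR they were 6 for PEAK_140 against NADIR_180 (70.6% of all regions), 5 for CONS_180 against NADIR_180 and 4 by time and pattern. Without the block, CONS_180 against NADIR_180 and time by pattern called 49.6 and 44% of all GR regions.

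Depth limited Ciart and Bhlhe41 mRNA, with 13 and 4 reads in all. Of the values of single genes and regions under the alternatives, 1800 stayed on the same side of the threshold, 86 of them with the opposite sign and called in neither fit (with 1 library left out, 6 for GR, 30 for pSer2 Pol2 and 26 for mRNA), 109 lost a call in the same direction, 25 gained one and 22 turned direction where 1 of the fits made a call.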

Other observations

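Beyond 50 kb, 5 further GR regions lay within 100 kb of a clock output gene, 3 in an intron of Hlf, 1 in an intron of Auh at 60.2 kb from Nfil3 and 1 at 61.6 kb upstream of Rora. Against VEH, 4 of the 5 were raised at PEAK_140, where 78.6% of all regions were raised, 3 at CONS_140 (64.7%), 2 at CONS_180 (67.9%) and 0 at NADIR_180 (7.44%, limma). The region in Auh stood at -0.60 and -0.79 in VEH, 5.75 and 5.79 at PEAK_140, -0.53 and 0.98 at NADIR_180, 5.87 and 5.49 at CONS_140 and 5.34 and 5.14 at CONS_180, so that its PEAK_140 and constant libraries stood far above those of VEH and NADIR_180. How many of all regions separate in this way was not counted.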
